A study of Mus musculus with 6 samples.

Results

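Interferon-stimulated genes are the genes a cell switches on when an interferon binds its receptor. A list of 36 of them was followed by name across the cell classes of mouse quadriceps muscle at 7 days after a volumetric injury, and 35 of the 36 were rows of the deposited matrices, which hold 32285 genes. Mx1 was not analysed here. All animals were male C57BL/6 mice of WT genotype, 2 to 3 months old, and the left quadriceps was taken at day 7 in every group: without injury (uninjured), after a 2 mm injury called subcritical, or after a 3 mm injury called critical VML (volumetric muscle loss). Collagenase II and dispase II freed the cells of whole muscles, and those of 4 animals per group were labelled with hashtag antibodies and pooled, and each pool gave 1 droplet library of transcripts and 1 of surface-protein tags. Because each group is 1 pool, stained in 1 tube and sequenced as 1 library, group, pool and library cannot be told apart; hashtags separate the animals only within a pool.

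Type I interferons act through the receptor pair Ifnar1 and Ifnar2 and lead to binding of a complex that holds Stat2 and Irf9 at the interferon-stimulated response element (ISRE). Interferon gamma acts through Ifngr1 and Ifngr2 and leads to binding at the gamma-activated site (GAS). The induced proteins block viral replication, carry antigen to the surface, attract T cells or feed back on the pathway, and in tissue many cells show a resting level of these transcripts without infection.

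To show what the members share at their start sites, promoter windows from 250 bases before to 50 bases after the start were read from RefSeq (GRCm38.p6, a different build from the GRCm39 of the expression files). There were 33 such windows for 28 members. The ISRE core was searched as GAAA, any 2 bases, GAAA, and the GAS core as TTC, any 3 bases, GAA, both on either strand. An ISRE core lay in 18 of the 33 windows (54.5%), against 3.44% of all 32851 windows. A GAS core lay in 8 (24.2%), against 8.30% of all windows. A match describes letters and not a bound site.

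The windows below belong to 6 members on which the results turn: Isg15, Rsad2, Ifitm3 and Irf7, whose transcripts were higher in endothelium after injury, and the chemokines Cxcl10 and Cxcl9, which marked different cells. Each is written 5′ to 3′ on the strand of the gene, and capitals mark matches to either core. Isg15 (chr4:156200769-156201068, minus strand) has 3 overlapping ISRE cores, the first 78 bases before the start. Rsad2 (chr12:26456403-26456702, minus strand) has 1, at 120 bases before the start. In Ifitm3 (chr7:141010695-141010994, minus strand) 2 ISRE cores lie just after the start and a GAS core overlaps the second. Cxcl10 (chr5:92348840-92349139, minus strand) has 1 ISRE core, 213 bases before the start. Irf7 (chr7:141266375-141266674, minus strand) and Cxcl9 (chr5:92328030-92328329, minus strand) have neither core in this window.
Isg15: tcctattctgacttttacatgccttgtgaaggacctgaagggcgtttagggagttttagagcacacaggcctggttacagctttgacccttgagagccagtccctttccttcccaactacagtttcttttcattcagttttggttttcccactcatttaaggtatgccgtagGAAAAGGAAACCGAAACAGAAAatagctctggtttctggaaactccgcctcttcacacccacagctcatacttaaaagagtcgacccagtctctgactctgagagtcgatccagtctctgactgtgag
Rsad2: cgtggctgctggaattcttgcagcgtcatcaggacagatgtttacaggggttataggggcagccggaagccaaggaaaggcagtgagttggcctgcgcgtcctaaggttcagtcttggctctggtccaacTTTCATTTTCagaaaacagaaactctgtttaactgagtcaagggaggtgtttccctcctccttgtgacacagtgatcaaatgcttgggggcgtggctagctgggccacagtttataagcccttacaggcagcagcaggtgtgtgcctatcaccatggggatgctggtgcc
Ifitm3: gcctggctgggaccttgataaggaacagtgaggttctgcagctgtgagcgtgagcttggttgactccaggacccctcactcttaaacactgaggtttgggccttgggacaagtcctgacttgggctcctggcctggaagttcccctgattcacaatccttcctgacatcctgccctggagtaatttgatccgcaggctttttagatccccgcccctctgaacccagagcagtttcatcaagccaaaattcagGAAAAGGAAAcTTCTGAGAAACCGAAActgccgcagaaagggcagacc
Irf7: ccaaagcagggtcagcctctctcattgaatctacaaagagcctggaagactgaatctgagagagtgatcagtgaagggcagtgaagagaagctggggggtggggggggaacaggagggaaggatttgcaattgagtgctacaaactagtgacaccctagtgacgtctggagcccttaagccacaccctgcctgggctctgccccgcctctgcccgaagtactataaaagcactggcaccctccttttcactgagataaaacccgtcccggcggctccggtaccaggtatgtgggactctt
Cxcl10: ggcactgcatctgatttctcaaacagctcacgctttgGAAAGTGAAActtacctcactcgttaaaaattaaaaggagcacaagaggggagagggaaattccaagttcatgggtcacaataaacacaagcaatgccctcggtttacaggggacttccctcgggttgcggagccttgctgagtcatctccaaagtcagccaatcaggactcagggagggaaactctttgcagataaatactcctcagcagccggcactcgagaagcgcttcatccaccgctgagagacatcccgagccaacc
Cxcl9: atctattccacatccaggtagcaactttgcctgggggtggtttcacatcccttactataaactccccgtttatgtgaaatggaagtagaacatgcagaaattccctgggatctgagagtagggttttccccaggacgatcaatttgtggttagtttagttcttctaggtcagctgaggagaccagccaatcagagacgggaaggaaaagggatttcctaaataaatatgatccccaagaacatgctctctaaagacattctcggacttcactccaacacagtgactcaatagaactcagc

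After filters, 2134, 2732 and 3012 cells remained in the uninjured, subcritical and critical libraries, with a median of 1805.5, 1277 and 1589 UMIs per cell (unique molecular identifiers, each counting 1 transcript molecule). Cells were clustered without the members and without 116 further interferon genes, and clusters were named from marker genes. The uninjured library also held 121 neutrophil-like and 29 B-like cells. Between 38.6% and 45.4% of the cells of a library could be given to 1 animal. The median mitochondrial share was 0.186% and 0.188% in the uninjured and subcritical libraries and 0.375% in the critical library. The part of that difference in the results that set critical animals apart was not tested. Libraries shared 10 to 16 cell barcodes with each other.

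Endothelial-like cells carried most of the signature in the uninjured muscle, and after injury macrophage-like and FAP-like cells (fibro-adipogenic progenitors, the stromal cells of muscle) held shares of it as well. Levels are given as CPM, the UMIs of a gene per 1000000 UMIs of the cells concerned. The core list of antiviral and type I signature genes, 14 of them measured, summed to 1035, 1347 and 1584 CPM in endothelial-like cells of the uninjured, subcritical and critical libraries. Endothelial-like cells were 60.7% of the cells and held 86.7% of the core UMIs of the uninjured library; they were 20.02% and 20.12% of cells and held 32.6% and 30.1% of core UMIs after the subcritical and the critical injury.

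In macrophage-like cells the core sum was 628 CPM in the subcritical and 886 CPM in the critical library. In the uninjured library it was 153 CPM over only 33 cells. FAP-like cells read 133, 347 and 450 CPM in the same order of groups, and mural-like cells (pericytes and smooth muscle) 127, 832 and 544 CPM. Myogenic-like cells stayed lowest among these classes, at 162 and 175 CPM after the subcritical and the critical injury. Over whole libraries the core sum was 543, 571 and 684 CPM, so the class-level levels differed more between groups than the tissue total did.

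**Figure D1:**
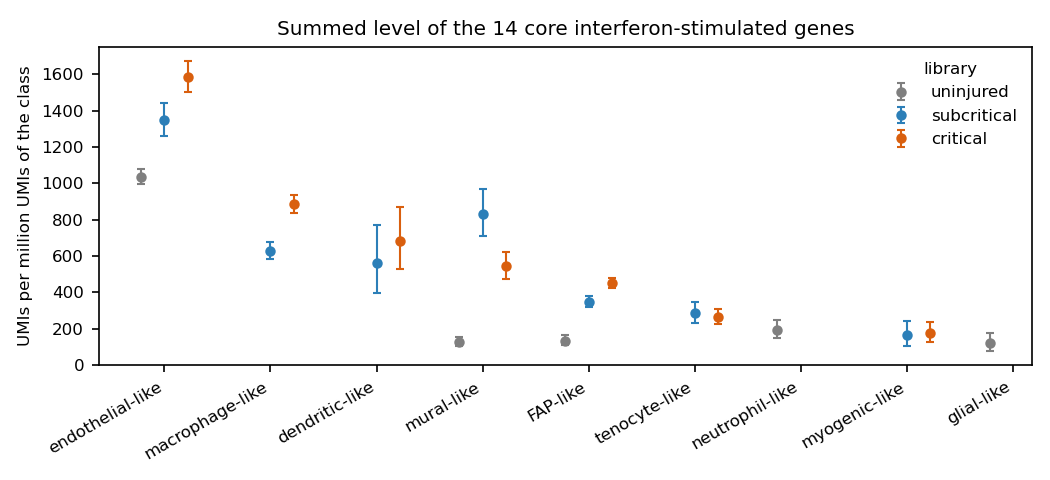
Summed level of the 14 core members in each named class with at least 50 cells in a library, in CPM (UMIs per 1000000 UMIs of the class), with 95% exact Poisson intervals that cover counting error only. Of the classes plotted, endothelial-like cells are highest in all 3 libraries, at 1035, 1347 and 1584 CPM.

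Among classes of at least 50 cells, endothelial-like cells had the highest level of 29, 21 and 21 of the 35 members in the uninjured, subcritical and critical libraries, and their counting interval was clear of the next class for 25, 4 and 13 of these. Of the core members, 12 of 14 had their highest class level in endothelial-like cells of the uninjured muscle and 9 of 14 in each injured library. Isg15, a ubiquitin-like protein attached to other proteins, read 278, 428 and 426 CPM in endothelial-like cells. It was at 121 and 162 CPM in macrophage-like cells of the subcritical and critical libraries and at 15.3, 107 and 164 CPM in FAP-like cells of the 3 libraries. At an equal depth of 1000 UMIs per cell, 16.4%, 23.3% and 26.4% of endothelial-like cells held an Isg15 UMI, against 22.9%, 25.6% and 28.4% at their own depths (medians of 1535, 911 and 1071.5 UMIs). The myogenic-like share, a low class, was 8.93% and 4.55% of thinned cells after the subcritical and the critical injury. Rsad2, the antiviral enzyme viperin, read 67.9, 114 and 177 CPM in endothelial-like cells and 1.53, 2.71 and 4.94 CPM in FAP-like cells. In macrophage-like cells of the subcritical and critical libraries it was at 35.4 and 50.6 CPM. Xaf1, a pro-apoptotic interferon-induced gene, read in endothelium 178, 181 and 179 CPM. Oas1a, which senses double-stranded RNA, and Zbp1, a sensor of Z-form nucleic acid, were the core members with highest levels in macrophage-like cells of the critical library together with Oasl2 and Ifit2.

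Of the 3 transcription factors, Irf7, the amplifier of type I interferon production, read 100, 135 and 215 CPM in endothelial-like cells and 130 and 148 CPM in macrophage-like cells of the subcritical and critical libraries. Irf1, which responds to interferon gamma, was at 160, 95.2 and 112 CPM in endothelium. Stat2, a subunit of the type I complex, stayed between 73.0 and 88.6 CPM there.

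The 7 other induced genes split by class. Ifitm3, which restricts virus entry, was the member with most UMIs and reached 3644, 4395 and 4431 CPM in endothelial-like cells, where 91.6% to 95.6% of cells held it; it was also high in FAP-like cells, at 1746 to 1873 CPM. Bst2, the membrane tether tetherin, read 944, 1114 and 1118 CPM in endothelium. Ifi27l2a, a small interferon-induced mitochondrial protein, had the opposite order of classes: it was at 919 and 823 CPM in macrophage-like cells of the injured libraries, 422 to 611 CPM in FAP-like cells and 131, 400 and 333 CPM in endothelial-like cells. Lgals3bp, a secreted galectin-binding glycoprotein, was likewise highest in macrophage-like cells after injury, at 341 and 359 CPM.

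All 7 interferon-inducible GTPases, proteins that attack the membranes around intracellular pathogens, had their highest level in endothelial-like cells of the uninjured and of the critical muscle, and 6 of 7 in the subcritical muscle. Gbp7 read 163, 117 and 159 CPM and Gbp2 112, 76.2 and 112 CPM in endothelium. In macrophage-like cells of the injured libraries the 7 ranged from 2.65 to 34.4 CPM.

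The p200 DNA sensors did not share this pattern. Ifi205 was at 146 CPM in FAP-like cells of the uninjured muscle, with UMIs in 28.5% of them, and at 10.9 and 25.1 CPM in the FAP-like cells of the subcritical and critical libraries. No Ifi205 UMI was seen in endothelial-like cells of any library. Ifi204 was highest in FAP-like cells among the uninjured classes with at least 50 cells, at 26.1 CPM, and in macrophage-like cells after injury, at 19.5 and 40.0 CPM. Ifi203 was between 33.1 and 38.6 CPM in endothelium. These 3 genes are close paralogs, as are members of the Gbp, Ifit and Oas families, and reads that fit several copies could be divided or dropped in the authors' counting.

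The 2 chemokines, both ligands of Cxcr3, a receptor that draws activated T cells, differed in their order of classes. Cxcl10 read 125 and 128 CPM in macrophage-like cells of the subcritical and critical libraries, in 8.29% and 9.72% of cells, while endothelial-like cells were at 25.4 and 22.7 CPM, with UMIs in 1.65% and 1.82% of cells. Cxcl9 read 92.7 CPM in endothelial-like cells of the uninjured muscle, in 11.2% of cells, and 52.4 and 25.0 CPM after the subcritical and the critical injury, in 2.74% and 1.98% of cells. At 1000 UMIs per cell those shares were 7.19%, 2.59% and 1.52%. In macrophage-like cells Cxcl9 was at 3.54 and 2.11 CPM. Dendritic-like cells of the subcritical library had the highest Cxcl9 level, 75.7 CPM from 5 UMIs in 56 cells, with an interval that overlapped that of endothelium. In the critical library FAP-like cells, at 17.3 CPM, were not apart from endothelium.

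Endothelial-like cells of individual animals were compared next, using 4 uninjured, 4 subcritical and 3 critical animals. The fourth critical animal, number 1, had 11 tagged endothelial-like cells and was left out. The tests rest on 52.2%, 38.4% and 34.2% of the endothelial-like cells of the 3 libraries. The comparisons of each injury with uninjured muscle share the 4 uninjured animals.

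Part of the list rose in endothelium after each injury. Of 14 members with enough counts to test, 6 were higher in critical than in uninjured animals at an adjusted p below 0.05 and none was lower; over all 1793 genes tested, 12% were higher, 8.81% lower and 20.9% changed in either direction. In subcritical against uninjured animals 4 of 14 were higher and none lower, where 11.3% of all genes were higher, 9.15% lower and 20.5% changed. The members' median log2 difference was 0.47 and 0.46, beside 0.014 and 0.019 over all genes. All adjusted p-values here are from edgeR's quasi-likelihood test with Benjamini-Hochberg adjustment over all genes tested, and errors of log2 differences are standard errors.

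Isg15 read 272, 216, 313 and 218 CPM in the uninjured animals, 387, 427, 700 and 499 CPM in the subcritical animals and 357, 605 and 518 CPM in the critical animals. Every injured animal was above every uninjured animal. The log2 difference was 1.01 ± 0.20 for critical and 1.03 ± 0.20 for subcritical against uninjured (edgeR adjusted p = 0.000312 and 0.000232).

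Ifi27l2a had the largest rise of the members tested. It read 129, 125, 34.3 and 79.0 CPM in the uninjured animals, 580, 342, 875 and 389 CPM in the subcritical and 348, 572 and 509 CPM in the critical animals, without overlap between injured and uninjured animals. The log2 difference was 2.36 ± 0.36 for critical and 2.47 ± 0.36 for subcritical (edgeR adjusted p = 0.000275 and 0.000168).

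Lgals3bp was close to 100 CPM in each uninjured animal, between 92.3 and 108 CPM. It read 211, 232, 117 and 146 CPM in the subcritical and 182, 262 and 202 CPM in the critical animals, all above the uninjured range. The log2 difference was 1.09 ± 0.25 for critical and 0.92 ± 0.26 for subcritical (edgeR adjusted p = 0.00127 and 0.00943); in subcritical animals it no longer passed without subcritical animal 2 or without the filter on low counts.

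Irf7 passed in critical but not in subcritical animals. In critical animals it read 224, 164 and 368 CPM beside 77.6, 73.5, 146 and 105 CPM in uninjured animals. Those groups did not overlap, and the log2 difference was 1.45 ± 0.28 (edgeR adjusted p = 0.00022). The subcritical animals, at 176, 220, 146 and 85.2 CPM, overlapped the uninjured range (0.71 ± 0.32, edgeR adjusted p = 0.125). Between critical and subcritical animals Irf7 differed by 0.74 ± 0.33 (edgeR adjusted p = 0.513), so a difference between the injuries was not shown.

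Rsad2 read 51.8, 86.0, 81.4 and 71.8 CPM in uninjured and 116, 262 and 114 CPM in critical animals. The log2 difference was 0.97 ± 0.34 (edgeR adjusted p = 0.0369), a call that was lost in 5 of 16 alternatives, among them DESeq2 and the fits without uninjured animal 3 or 4. In subcritical animals it ranged from 70.3 to 233 CPM (0.83 ± 0.36, edgeR adjusted p = 0.0999). Ifitm3 was at 3248 to 4021 CPM in uninjured, 4333 to 4898 CPM in subcritical and 4545 to 4943 CPM in critical animals, a rise of 0.45 ± 0.10 and 0.45 ± 0.09 for critical and subcritical (edgeR adjusted p = 0.000796 and 0.000498). Without the filter on low counts Ifitm3 did not pass in either comparison, at 0.34 ± 0.11 and 0.26 ± 0.11 (edgeR adjusted p = 0.086 and 0.225).

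The other members tested did not pass in either comparison with uninjured animals. Bst2 read 712 to 1221 CPM in uninjured and 1228 to 1369 CPM in critical animals (0.48 ± 0.24, edgeR adjusted p = 0.19). Gbp2 and Gbp7, which answer to interferon gamma as well, had values below 0: Gbp2 at -0.45 ± 0.37 for critical and -0.55 ± 0.40 for subcritical, and Gbp7 at -0.30 ± 0.26 and -0.39 ± 0.27. Xaf1 was at 0.19 ± 0.24 and 0.35 ± 0.24, and Irf1 at -0.15 ± 0.28 and -0.65 ± 0.32.

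**Figure D2:**
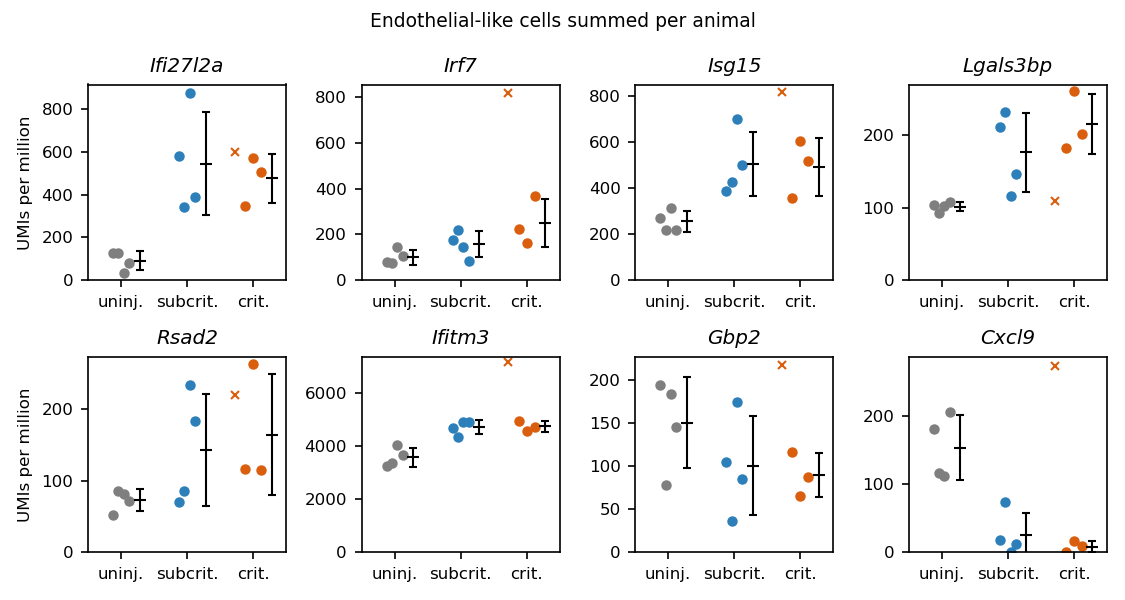
Level per animal in endothelial-like cells of 8 members, in CPM; each dot is 1 animal, the bar is the mean with its SD, and the cross is critical animal 1 with 11 cells, which was left out. Isg15 and Ifi27l2a of all injured animals lie above all uninjured animals, and Cxcl9 of the uninjured animals lies above all used injured animals.

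Cxcl9 was left out of the main fits by the filter on low counts, so their count of lower members does not cover it. In alternatives that kept the filter and tested it, it was called lower in both injuries. Among these were fits without uninjured animal 1, without each subcritical animal in turn and without high doublet scores. Cxcl9 read 181, 116, 111 and 206 CPM in the uninjured animals, 17.6, 73.2, 0 and 12.2 CPM in the subcritical and 0, 16.4 and 8.77 CPM in the critical animals used. Those ranges did not overlap, but critical animal 1, left out for its 11 cells, was at 273 CPM. Without that filter it fell by 4.39 ± 0.59 on the log2 scale in critical and by 2.36 ± 0.44 in subcritical animals against uninjured (edgeR adjusted p = 7.2e-11 and 1e-05). The median of all genes in those fits was -0.18 and -0.30. Igtp, an interferon-gamma-inducible GTPase, fell by 1.62 ± 0.49 in critical animals in the same fit (edgeR adjusted p = 0.0417); it did not pass in subcritical animals.

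Of 26 further interferon genes tested, 1 rose and 3 fell in critical animals, where 12% of all genes were higher and 8.81% lower. In subcritical animals 1 rose and 4 fell, where 11.3% of all genes were higher and 9.15% lower. Whether they differed from the members was not tested. Ly6e, a membrane protein of the Ly6 family, rose by 0.34 ± 0.10 and 0.32 ± 0.10 (edgeR adjusted p = 0.0128 and 0.0118). Ifitm2, the neighbour and paralog of Ifitm3, fell by 0.60 ± 0.11 and 0.67 ± 0.11. Nmi and Irf2 fell in critical animals by 1.10 ± 0.33 and 1.13 ± 0.33, and Psmb10, Slfn5 and H2-T23 fell in subcritical animals by 0.68 ± 0.24, 0.69 ± 0.18 and 0.52 ± 0.19.

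Between the 2 injuries no member passed in endothelium. Of 14 tested, 0 were called, with 2 at an unadjusted p below 0.05 (Irf7 and Ifi35, both higher in critical), and DESeq2 called 0 of the 4 members that it gave an adjusted p; over 1793 genes edgeR called 0.335% higher, 0.446% lower and 0.781% in either direction. Ifi35 was at 149, 278 and 202 CPM in critical and 70.3, 146, 117 and 85.2 CPM in subcritical animals (0.90 ± 0.33, edgeR adjusted p = 0.371). Uninjured animals were at 155 to 193 CPM, above every subcritical animal. Against uninjured, Ifi35 was at 0.23 ± 0.24 in critical and -0.67 ± 0.29 in subcritical animals (edgeR adjusted p = 0.572 and 0.0965). The share of all genes at an unadjusted p below 0.05 was not counted, so the 2 members at that level are not read as changed. These groups are small, and a p that misses the threshold does not show equal levels.

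Different endothelial clusters made up the class in uninjured and injured muscle, and the levels differed between clusters. The largest uninjured cluster, led by Timp4 and Car4, held 674 of the 1295 endothelial-like cells, but only 12 of 547 and 47 of 606 in the injured libraries, where a cluster led by Prnd and Aplnr was largest (166, 353 and 374 cells). Within that Prnd cluster the core sum was 792, 1295 and 1468 CPM. By animal it was 959, 1043 and 735 CPM in uninjured animals 2 to 4, 1323, 1301, 1542 and 1521 CPM in subcritical animals and 1382, 1722 and 1678 CPM in critical animals 2 to 4, so uninjured and injured animals did not overlap within this cluster. Isg15 in it was at 169, 410 and 387 CPM, Ifi27l2a at 174, 390 and 321 CPM, and Cxcl9 at 115, 34.1 and 30.6 CPM.

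The arterial-marker cluster, led by Sema3g, Gkn3 and Gja5, had core sums of 1490, 2458 and 2211 CPM. A venous-marker cluster, led by Selp, Ackr1 and Vwf, had 552, 546 and 567 CPM, the lowest of the endothelial clusters after injury, and Isg15 there was at 216, 153 and 99.6 CPM. In the Timp4 and Car4 cluster the core sum was 882 CPM without injury and 3843 CPM in the 47 critical cells, where 10 cells of critical animal 2 were at 2484 CPM and 14 cells of critical animal 4 at 643 CPM.

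Transcripts of macrophage marker genes were also found in endothelial-like cells. The 8 macrophage markers summed to 28.8, 560 and 666 CPM in endothelial-like cells, all 8 being detected in the injured libraries, and this was 1.26% and 1.73% of their level in macrophage-like cells there. Ifi27l2a in endothelium was at 43.5% and 40.4%, and Lgals3bp at 45.1% and 46.5%, of the macrophage level in the same libraries.

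Macrophage-like cells could be compared between the 2 injuries with 4 animals each, resting on 94.8% and 90.5% of the class. No member passed: of 17 tested, 0 were called by edgeR, with 3 at an unadjusted p below 0.05, and DESeq2 called 0 of the 9 members that it gave an adjusted p. Over 3876 genes, at the adjusted threshold, 0.516% were higher, 0.619% lower and 1.14% changed in either direction. The share of all genes at an unadjusted p below 0.05 was not counted, so the 3 members are not read as changed. The members' median log2 difference was 0.18, with 13 of 17 above 0, beside a median of 0.005 and 51.1% above 0 over all genes.

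The 3 members at an unadjusted p below 0.05 were Rtp4, Parp14 and Xaf1, named here after their values were seen where the naming rule does not cover them. Rtp4, a chaperone with antiviral action, was at 53.4, 74.3, 54.5 and 63.8 CPM in subcritical and 104, 151, 80.8 and 106 CPM in critical animals, without overlap (0.82 ± 0.23, edgeR adjusted p = 0.0644). It passed when critical animal 3 was left out. Xaf1 was at 43.7, 59.5, 27.3 and 47.2 CPM and 87.6, 93.0, 55.1 and 57.1 CPM (0.62 ± 0.27, edgeR adjusted p = 0.466). Isg15 was at 93.4 to 134 CPM in subcritical animals and at 104, 299, 88.2 and 110 CPM in critical animals, with critical animal 2 far above the rest (0.40 ± 0.47, edgeR adjusted p = 0.918).

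In macrophage-like cells Cxcl10 did not pass between the injuries, at 87.3, 190, 85.7 and 122 CPM in subcritical and 151, 162, 99.2 and 120 CPM in critical animals (0.05 ± 0.22, edgeR adjusted p = 0.985). Of the 45 further interferon genes tested here edgeR called 0.

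**Figure D3:**
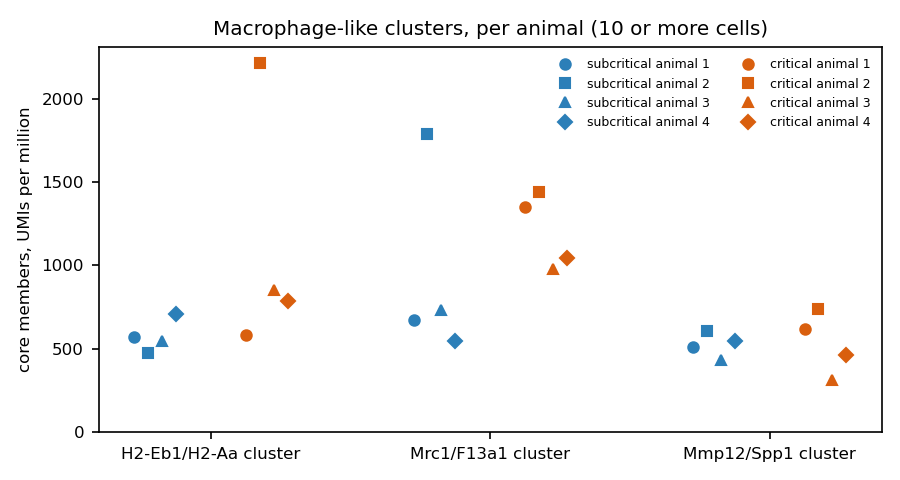
Summed core level per animal, in CPM, in 3 clusters of macrophage-like cells, named by leading genes. In the H2-Eb1 and H2-Aa cluster critical animal 2 stands at 2214 CPM, and the Mmp12 and Spp1 cluster lies between 316 and 738 CPM in all animals.

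The macrophage-like clusters differed in their core level and animals differed within them. In the cluster led by H2-Eb1 and H2-Aa, genes of antigen presentation, the core sum was 573, 473, 549 and 708 CPM in subcritical animals and 581, 2214, 854 and 790 CPM in critical animals. In the cluster led by Mrc1 and F13a1, marks of resident macrophages, it was 675, 1787, 732 and 549 CPM and 1348, 1441, 978 and 1046 CPM. In the cluster led by Mmp12, Gpnmb and Spp1 it was 431 to 607 CPM and 316 to 738 CPM. Critical animal 2 in the first cluster and subcritical animal 2 in the second were the highest of their groups, and the groups overlapped in all 3 clusters.

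Whether the critical-to-subcritical difference itself differed between macrophage-like and endothelial-like cells was tested as an interaction over 3 critical and 4 subcritical animals. Of 23 members 0 passed, and 0% of 3921 genes passed. The standard errors of the members in this test ran from 0.17 for Ifitm3 to 1.05 for Iigp1. On simulated data the fit recovered 5% of 2-fold and 47% of 4-fold changes, so it cannot decide on differences of 2-fold.

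In FAP-like cells too few were tagged for a comparison of animals, so the 3 libraries are described without a test. Against the uninjured library, 15 of 31 members were at least 2-fold higher in the critical library, where 8.19% of all genes were, and 1 was 2-fold lower, where 10.6% of all genes were. In the subcritical library 12 of 30 were 2-fold higher (7.2% of all genes) and 2 were 2-fold lower (11% of all genes). The median log2 difference of the members was 0.57 for critical and 0.64 for subcritical, beside -0.08 and -0.12 over all genes. Isg15 differed by 3.33 (95% counting interval 2.52 to 4.49) and 2.72 (1.88 to 3.88), and Bst2 by 1.81 and 1.63. The 8 macrophage markers summed to 9.20, 583 and 402 CPM in FAP-like cells of the uninjured, subcritical and critical libraries, with 4 of the 8 at 0 without injury. The part of this in the members' differences was not tested.

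Ifi205, by contrast, was lower by 2.49 and 3.63 on the log2 scale in FAP-like cells of the critical and the subcritical library, and Ifitm3 was at -0.09 and -0.10. Between the injuries 2 of 31 members were 2-fold higher in critical (1.35% of all genes) and 0 were 2-fold lower (0.793% of all genes), with a median of 0.24 beside 0.03. Clusters shifted in this class as well: a cluster led by H19 and Postn held 1, 345 and 484 cells, and a cluster led by Myoc and Pi16 held 157, 289 and 282. Within the Myoc and Pi16 cluster the members' median was 1.11 for critical (34 members) and 1.18 for subcritical (32 members) against uninjured. The medians over all genes of that cluster were -0.06 and -0.10. There Isg15 was at 15.4, 104 and 126 CPM.

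Mural-like cells showed larger differences over a higher background. Against uninjured, 19 of 29 members were 2-fold higher in the critical library (17.1% of all genes) and 25 of 29 in the subcritical library (16.1% of all genes), with medians of 1.62 and 2.22. In each comparison 1 of 29 was 2-fold lower, where 10.4% and 13.1% of all genes were. Between the injuries 3 of 32 were 2-fold higher in critical (14.1% of all genes) and 7 were 2-fold lower (8.32% of all genes), with a median of -0.45. Isg15 read 55.1, 344 and 239 CPM and Ifitm3 762, 3544 and 2710 CPM in the 3 libraries. The cluster led by Rgs5 and Higd1b, pericyte markers, went from 57 to 104 and 156 cells and the smooth-muscle cluster led by Myh11 and Pln from 189 to 52 and 57; the core sum was 528, 1035 and 636 CPM in the former and 38.3, 422 and 215 CPM in the latter. Endothelial markers in mural-like cells were at 10.0%, 18.2% and 9.69% of their endothelial level, and their part in these values was not tested.

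To see whether a small set of cells carried the response, each cell with at least 1000 UMIs was thinned to 1000 UMIs and called interferon-high when at least 3 core members were detected. This is a range of a score and not a cell type. Endothelial-like cells were interferon-high in 82 of 960 cells (8.54%, 95% Clopper-Pearson interval 6.85 to 10.5%) without injury, in 23 of 232 (9.91%, 6.39 to 14.5%) after the subcritical and in 48 of 329 (14.6%, 11.0 to 18.9%) after the critical injury. Macrophage-like cells were interferon-high in 25 of 450 (5.56%, 3.63 to 8.09%) and 49 of 532 (9.21%, 6.89 to 11.99%) cells after the subcritical and the critical injury. Intervals cover counting error only, and 335, 315 and 277 endothelial-like and 334 and 250 macrophage-like cells were too shallow to be used. Just under the limit, with exactly 2 core members, were 101, 32 and 51 endothelial-like and 21 and 47 macrophage-like cells.

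FAP-like cells were interferon-high in 0.671%, 1.68% and 2.13% of cells of the 3 libraries. In mural-like cells the count was 0 of 204 without injury, which allows a share of up to 1.47%, and 7 of 94 and 6 of 160 after the subcritical and the critical injury. Of the 84 interferon-high cells of the uninjured library, 82 (97.6%) were endothelial-like, a class that made up 58.0% of the thinned cells. Of the 74 in the subcritical library 23 were endothelial-like, 25 macrophage-like and 9 FAP-like, and of the 135 in the critical library 48, 49 and 15.

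**Figure D4:**
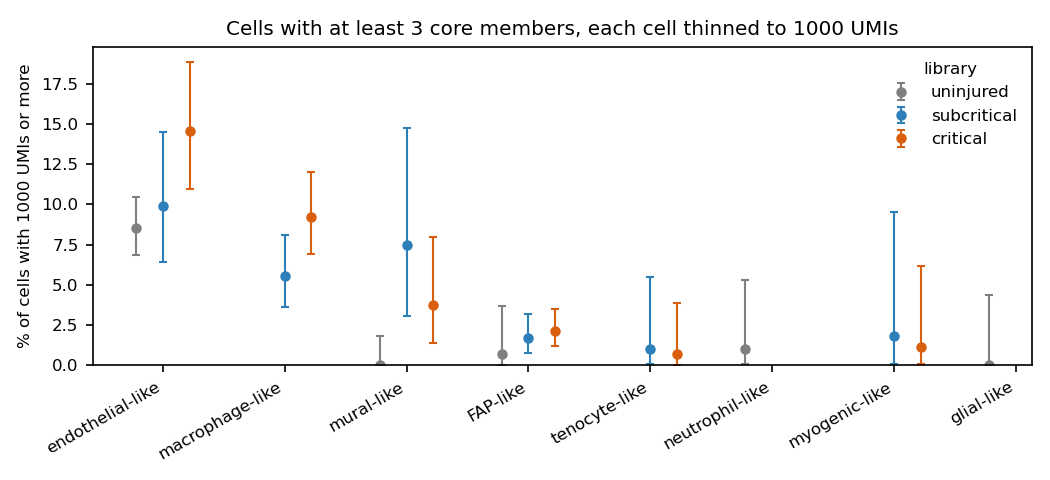
Share of cells in each class and library with at least 3 core members detected at 1000 UMIs per cell, in percent, with 95% Clopper-Pearson intervals. Endothelial-like cells of the critical library are highest among the classes plotted, at 14.6%, and FAP-like cells are at most 2.13%.

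Animals differed in the share of interferon-high macrophage-like cells. It was 3.75%, 10.5%, 2.06% and 4.90% in subcritical animals 1 to 4 and 10.2%, 15.4%, 2.75% and 7.95% in critical animals 1 to 4, so the groups overlapped. Of all 49 such cells in the critical library, 26 came from animal 2. All 3 macrophage-like clusters held such cells: 9 and 23 in the H2-Eb1 cluster, 12 and 19 in the Mrc1 cluster and 4 and 7 in the Mmp12 cluster of the subcritical and critical libraries. In endothelium the Sema3g cluster had the highest share, at 15.2%, 22.2% and 32.2% of thinned cells. By animal the endothelial-like share was 3.70%, 5.38%, 10.8% and 6.83% in uninjured and 10.5%, 18.2%, 23.1% and 5.41% in subcritical animals. Critical animals 2 to 4 were at 5.88%, 14.3% and 25.0%, so these groups overlapped as well. The means over animals were 6.67%, 14.3% and 15.1%, beside 8.54%, 9.91% and 14.6% over all thinned cells.

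The core UMIs were unevenly spread but not held by a few cells alone. At 1000 UMIs, 54.2%, 45.3% and 39.2% of endothelial-like cells and 70.2% and 57.7% of macrophage-like cells of the injured libraries had no core UMI. The 5% of cells with most core UMIs held 34.1%, 35.7% and 30.1% of them in endothelium and 46.4% and 39.1% in macrophage-like cells. When those cells were picked by every other core member (the odd places of the list) and read in the members in the even places, the top 5% held 29.9%, 38.0% and 30.0% in endothelium and 41.1% and 34.9% in macrophage-like cells. Picked by the even and read in the odd places, they held less: 20.8%, 16.5% and 21.6% in endothelium and 27.1% and 24.8% in macrophage-like cells. The even places had few UMIs to pick by: 206 of 949, 67 of 284 and 115 of 517 core UMIs in endothelium. In macrophage-like cells they had 76 of 279 and 158 of 517. The part of this in the lower shares was not tested. Picked by all core members and read in the members outside the core list, they held 12.2%, 12.1% and 13.7% in endothelium and 13.9% and 17.4% in macrophage-like cells. Removing the interferon-high cells lowers the core mean by rule, since the same counts chose them. Without them the mean core count per macrophage-like cell was 0.346 and 0.507 UMIs, beside 0.620 and 0.972 with them.

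The members outside the core list, which the call did not use, were described in the same thinned cells. In the critical library Bst2 was detected in 71.4% of interferon-high and 28.4% of other macrophage-like cells, Ifitm3 in 79.6% and 45.1%, Lgals3bp in 51.0% and 24.6% and Cxcl10 in 26.5% and 5.80%. In the subcritical library the corresponding shares were 64.0% and 30.6%, 76.0% and 41.4%, 52.0% and 24.9%, and 32.0% and 7.06%. Ifi27l2a differed less, at 53.1% and 37.3% in the critical and 56.0% and 36.9% in the subcritical library. Irf1 was at 20% and 4.71% in the subcritical but 6.12% and 5.80% in the critical library.

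Interferon genes that are no members were then tested between interferon-high and other macrophage-like cells within 5 animals that had enough of both (subcritical 2 and 4, critical 1, 2 and 4), with the animal as a block. Of 22 such genes 8 were higher and 0 lower in the interferon-high cells. Over the 953 genes tested that are no members 3.25% were higher and 2.31% lower. All 22 had a log2 difference above 0, with a median of 0.63 beside -0.05 over all genes. A gene could pass the filter on low counts through the interferon-high cells alone. The genes tested can thus lean towards rises, and their signs are not read as a result. Without that filter 105 further interferon genes were tested, with 10 higher and 0 lower. There 225 of 13350 genes, members included, were called in either direction. The core members chose the cells, and no member is read as a result of this test.

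Slfn5, of the Schlafen family, had a mean of 462 CPM in interferon-high cells (338 to 635 CPM over the 5 animals) and 115 CPM in the others (73.0 to 161 CPM), without overlap. It was higher by 2.15 ± 0.36 (edgeR adjusted p = 1.31e-05) and passed in all 12 alternatives that gave a test. Ly6e was higher by 1.57 ± 0.19, with 3019 against 1038 CPM.

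Genes of antigen processing were among the rest. H2-T23, a non-classical class I molecule, was higher by 1.31 ± 0.30, the immunoproteasome subunit Psmb8 by 1.16 ± 0.29, the proteasome activator Psme1 by 1.06 ± 0.32 and the class I heavy chain H2-K1 by 0.63 ± 0.19; Epsti1 was higher by 1.41 ± 0.37. Without critical animal 2 only 5 of the 8 passed, with H2-T23, Ly6e, Psmb8 and Slfn5 among them. Psme1 and H2-K1 also missed the threshold without subcritical animal 2, critical animal 1 or critical animal 4, and Epsti1 without critical animal 1. Without the filter on low counts, where the median of all genes was -0.85, Ly6e (0.73, edgeR adjusted p = 0.231), H2-T23, Psmb8, Psme1, Epsti1 and H2-K1 did not pass. The receptors did not pass: Ifngr1 was at 0.71 ± 0.32 (edgeR adjusted p = 0.194), Ifnar2 at 0.71 ± 0.34 (edgeR adjusted p = 0.245).

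**Figure D5:**
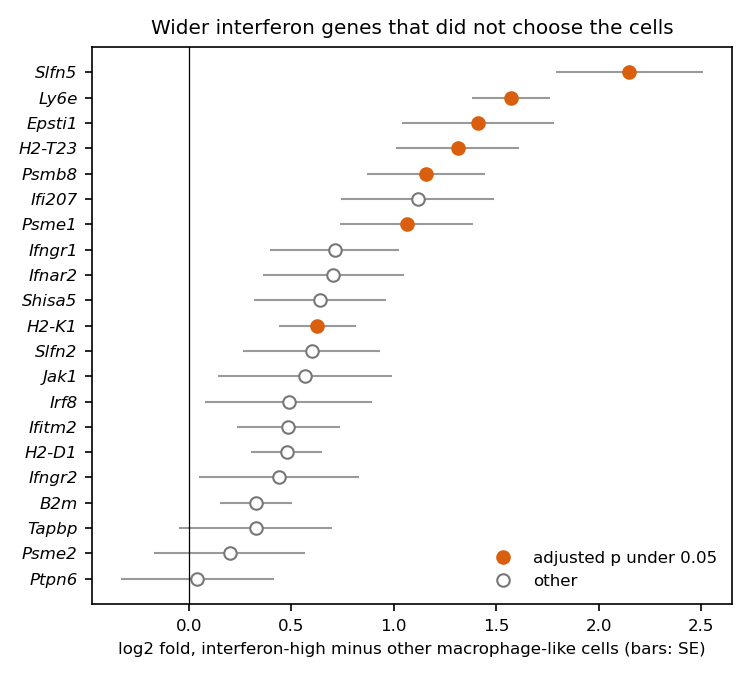
Log2 difference, with its standard error, between interferon-high and other macrophage-like cells of 5 animals for further interferon genes that are no members. All genes plotted lie above 0, with Slfn5 at 2.15 and Ly6e at 1.57 the highest of them. They passed a filter on low counts that the interferon-high cells alone could meet.

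Outside all lists, the 6 largest rises were Znfx1 (2.62 ± 0.40), an RNA helicase-like protein, Rnf213 (2.47 ± 0.37), a large ubiquitin ligase, Pnp (1.70 ± 0.32), an enzyme of purine salvage, Fcgr1 (1.64 ± 0.30), the high-affinity IgG receptor, Trafd1 (1.59 ± 0.37) and Sparc (1.51 ± 0.42), a matrix protein made by stromal and endothelial cells. Sparc ranged from 63.5 to 981 CPM in interferon-high cells. The 8 endothelial markers summed to 216 and 378 CPM in interferon-high macrophage-like cells of the subcritical and critical libraries and to 90.0 and 107 CPM in the others, with such a UMI in 8% and 6.12% against 7.53% and 7.66% of cells. High doublet scores were held by 8% and 4.08% against 1.65% and 2.28%. Without the cells that held an endothelial marker UMI 10 of the further interferon genes passed, and without the high doublet scores 8.

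A second readout came from the surface-protein tags, of which the antibody to BST2 matches a member. Per 10000 tags of a class it read 133, 114 and 129 in endothelial-like cells, 53.3 and 48.3 in macrophage-like cells of the injured libraries and 56.9, 55.1 and 55.8 in FAP-like cells. Isotype controls, which bind no mouse antigen, read 10.9 to 27.0 in endothelial-like cells. In the injured libraries the order of endothelium above macrophages was the same as for the Bst2 transcript, but other orders per 10000 tags differed. Per 10000 tags FAP-like cells were above macrophage-like cells, with Bst2 transcript at 64.8% and 71.3% of the macrophage level. BST2 tags per cell had the reverse order in these libraries: 0.355 and 0.286 in FAP-like, 0.860 and 0.713 in macrophage-like cells. Myogenic-like cells of the subcritical library read 39.7 per 10000 tags. Those of the critical library read 85.3, with a BST2 tag in only 15.9% of them. Their Bst2 transcript, at 93.4 CPM, was the lowest of the classes with at least 50 cells. Interferon-high macrophage-like cells read 61.2 and 60.9 per 10000 tags against 51.7 and 48.3 in the others. Interferon-high endothelial-like cells read 149, 126 and 125 against 137, 112 and 126. Per cell they held 3.66, 3.22 and 2.54 BST2 tags against 4.51, 2.64 and 2.34, so the uninjured order was reversed. No replicate check of these differences was made.

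Transcripts of the interferons themselves were nearly absent. Among 9 ligand genes, Ifnb1 had 1 UMI, in a dendritic-like cell of the critical library, and Ifng had 6 UMIs in 2 cells of the subcritical and 6 UMIs in 2 cells of the critical library. The other 7 had none in any library. Of the receptor chains, Ifnar2 read 183, 219 and 173 CPM and Ifngr1 312, 298 and 317 CPM in endothelial-like cells. In macrophage-like cells of the injured libraries Ifnar2 read 244 and 240 CPM and Ifngr1 335 and 386 CPM. Whether receptor levels followed those of the members was not tested. In FAP-like cells Ifngr1 read 390, 111 and 133 CPM. In endothelium neither Ifnar2 nor Ifngr1 passed in a comparison with uninjured animals.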

How the data were processed

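Each group was 1 droplet library of transcripts with 1 of antibody tags, over 4 hashtagged animals. The authors deposited filtered matrices of raw UMI counts per gene and cell, made with Cell Ranger 6.0.2 per the file headers, on GRCm39 per the submitters' processing notes; the annotation release is not given in the sources used here. The deposited antibody counts hold the hashtags.

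The limits for keeping a barcode were 200 genes, 500 UMIs and a mitochondrial share of 20%. They left 2134, 2732 and 3012 cells of 2195, 3071 and 3161 barcodes after removal of 60, 169 and 148 cells with several hashtags. Total counts were 5681346, 4954129 and 7138662 UMIs. Scrublet marked 75 of 8255 cells (0.909%), and no cell was removed on its score in the analysis reported; an alternative left out the 47, 52 and 66 cells with the highest scores. Clusters came from scanpy 1.11.5 (2000 variable genes without any interferon gene of the lists, 30 components, 15 neighbours, Leiden resolution 0.8) and were named when at least 3 markers were in at least 10% of cells, with a mean log2 lead of 0.3 over other cells and of 0.5 over the next class; ambiguous clusters were split again. Antibody aggregates (9, 15 and 18 cells) were left out of surface values.

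A cell was given to 1 animal when its hashtag had a posterior over 0.5; the lowest hashtag count so called was 2 to 6. A posterior of 0.9 was set first and was lowered after counts of tagged cells and class-level sums had been seen and before any test, since at 0.9 too few subcritical animals had 20 endothelial-like cells. The naming rule had 3 versions, and the last was set after class-level sums of the members were seen. The members, the gene lists and the markers were chosen with earlier results of these data known.

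UMIs were summed per animal and class (at least 20 cells, or 5 interferon-high cells) and tested with edgeR 4.0.16 (quasi-likelihood, TMM, filterByExpr, limma 3.58.1, R 4.3.3), Benjamini-Hochberg over all genes tested, adjusted p below 0.05. Hashtag numbers pair no animals across groups, so no block was used there; interferon-high and other cells come from the same animals, which were the block. Each fit was tested on simulated data first. The comparisons of groups recovered 60% to 77% of 2-fold and 88% to 97% of 4-fold changes. The interaction recovered 5% and 47%, and the fit of interferon-high against other cells 46% and 81%. Single libraries were compared as log2 CPM with a pseudocount of 1 CPM, for genes with a mean of at least 5 CPM. A count of 0 is given the limit of 3 counts. Intervals are at 95%. Alternatives were DESeq2 1.42.0, no filter on low counts, each animal left out, other hashtag calls, clusterings, doublet scores, depths and cut-offs. Genes with 78 repeated symbols were kept apart by identifier.

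Named in full were members that passed in any edgeR comparison and the 2 of each role list with most UMIs, further interferon genes that passed, with the receptors, and at most 6 genes outside the lists. A further gene counted in the lists is not reported here. Python 3.11.15, scipy 1.17.1 and matplotlib 3.10.9 were used.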

Additional observations from a re-analysis of the deposited data

Results flagged for a closer look

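Per animal levels of the named members were checked for an animal far from the other 3 of its group (a gap to the nearest animal above 0.829 of the range) in 68 groups of 4, and 5 groups were past that limit; chance flags about 1 in 20. In macrophage-like cells, critical animal 2 was highest for 3 members. Its Isg15 was 299 CPM, with the next animal at 110 CPM, its Ifitm3 was 1377 CPM, with the next at 867 CPM, and its Ifi204 was 55.3 CPM, with the next at 33.1 CPM. This animal also held 26 of the 49 interferon-high macrophage-like cells of its library. In endothelial-like cells, Ifi204 was 12.2 CPM in subcritical animal 2 and 3.13 CPM in uninjured animal 2, with 0 in the other 3 animals of each group, which is a difference of few UMIs. No member passed the test of whether the critical-to-subcritical difference differed between macrophage-like and endothelial-like cells, a fit that recovered 5% of simulated 2-fold changes.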

How the results depend on the processing

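Of the counts of called genes, 82 of 84 alternatives stayed within 1.5 times the reported count, and 233 of 260 alternatives for named genes kept direction and call. Of 101 alternatives for values without a test, 46 moved by more than their counting error. Fits without 1 animal gave 0 to 1 called members in macrophage-like cells between injuries (1 without critical animal 3) and 5 to 10 further interferon genes in interferon-high macrophage-like cells. Without the filter on low counts H2-K1 turned to -0.23 in that comparison, where the median of all genes was -0.85. In it no replicate block gave 9 called genes in place of 8; thinning draws 2 and 3 gave 9 each, while draw 4 and a cut of 4 members left too few animals to test. At a posterior over 0.9 or a hashtag share of at least 70%, both endothelial comparisons with subcritical animals had too few animals and gave no value. Posterior, stricter naming, thinning draws and the removal of endothelial-marker cells were chosen after seeing the data. With stricter naming the FAP-like medians were 0.067 (critical against subcritical), 1.11 and 1.18 (each against uninjured, critical first), and without the low-level filter 1.16 for critical against uninjured. Interferon-high shares moved with the cut and depth. For at least 2 core members, at least 4, and at least 3 at 500 and at 2000 UMIs, they were 19.1%, 4.79%, 2.78% and 21.6% in endothelial-like uninjured cells, 23.7%, 4.31%, 4.57% and 33.9% in subcritical and 30.1%, 6.99%, 5.78% and 27.0% in critical cells. They were 10.2%, 2.89%, 2.93% and 3.40% in macrophage-like subcritical cells, and 18.0%, 4.14% and 4.60% in critical cells at the first 3 settings. FAP-like cells gave 6.33% at least 2, 0.372% at least 4 and 5.22% at 2000 UMIs (subcritical), 8.66%, 0.710%, 0.522% and 4.79% (critical), and 0 for at least 4 and for 500 UMIs (uninjured). The share of core UMIs in the top 5% of cells at 500 UMIs was 52.9% (macrophage-like subcritical), 40.0% and 35.3% (endothelial-like uninjured and critical) and 51.4% (FAP-like critical), and at 2000 UMIs 30.8% (endothelial-like uninjured). Without the 10 cells with most member UMIs the core sums were 507 and 756 CPM (macrophage-like subcritical, critical), 927, 1090 and 1262 CPM (endothelial-like) and 91.5, 279.8 and 381 CPM (FAP-like), and at resolution 0.4 1252 CPM (endothelial-like subcritical). Over 20 thinning draws the interferon-high share was 4.67% to 6.67% and 7.52% to 9.96% in macrophage-like cells of the subcritical and critical libraries. The cause of these changes was not tested. Depth limits the members with few UMIs: 14 to 17 of 35 could be tested between groups of animals within a class.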
